A study of Mus musculus with 12 samples.

Results

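The Toll-like receptors were followed as 10 genes, Tlr1 to Tlr9 and Tlr13, among the 27179 genes in the count table of a study of macrophages from the mouse mammary duct. They were chosen by gene symbol, and all 10 were found by their Entrez identifiers. The libraries came from ductal macrophages sorted from the mammary gland of C57BL/6 females at 4 stages, virgin mice, mice at day 16.5 of pregnancy, lactating mice and mice 1 month after weaning, with 3 libraries labelled as biological replicates at each stage. The labels name no allele, transgene or treatment, and the age of the mice, the gate used for the sort and whether a library pooled several animals are not stated in the labels. The p-values below measure the spread between these libraries. The design asks how ductal macrophages differ over the cycle of pregnancy, lactation and weaning, and here the question is put to their sensors of microbial molecules.

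Toll-like receptors are membrane proteins that bind conserved microbial structures through an outer domain of leucine-rich repeats and signal through an inner TIR domain. One group sits at the cell surface and senses bacterial lipids and proteins, while another is carried to endosomes and senses nucleic acids. Most of them signal through the adaptor MyD88 to NF-kB and interferon regulatory factors, and macrophages are among the cells known to carry many of them.

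All 12 genes of a macrophage marker list, among them Adgre1 and Csf1r, were detected, although Mertk had 0 counts in Lactating replicate 3. The list took 1.55 to 1.69% of counts in Virgin libraries, 4.23 to 4.28% in Pregnant libraries, 1.03 to 2.03% in Lactating libraries and 1.97 to 2.37% in Post-weaning libraries. Much of that difference was 1 gene, Lyz2, which made up 65.4 to 66.8% of the list's counts in Pregnant libraries, against 20.9 to 32.2% in Virgin libraries. The other 11 markers took 1.41 to 1.46% of counts in Pregnant libraries, against 1.15 to 1.26% in Virgin libraries. Lactating replicate 3 stood apart. Milk protein and secretory cell genes took 6.72% of its counts, against 0 to 1.43% in the other 11 libraries, and it had the lowest share of macrophage markers, so results that rest on it are given with and without it. Library totals ran from 6926273 to 21204704 counts.

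Tlr2 was the most abundant of the 10 transcripts per unit of gene length. Levels between genes are compared as RPKM (CPM, the counts scaled to a common library size, divided by gene length in kilobases), and levels of 1 gene between stages as CPM, both on library sizes scaled by TMM. As the mean of the 4 stage means, Tlr2 stood at 299.9 RPKM, Tlr7 at 76, Tlr13 at 63.5, Tlr1 at 33.9, Tlr8 at 15, Tlr4 at 14.6, Tlr6 at 5.53, Tlr3 at 5.38, Tlr9 at 1.25 and Tlr5 at 0.195 RPKM. Tlr2 was above Tlr7 in 11 of 12 libraries, the exception being Lactating replicate 3. Tlr7 was above Tlr13 in only 7 of 12 libraries, Tlr8 above Tlr4 in 5 and Tlr6 above Tlr3 in 5, so these neighbours in the order did not differ beyond the spread between libraries. Tlr12 and Tlr11, which in mice sense a profilin of protozoan parasites, were not among the 10. They averaged 35.1 RPKM, a level near that of Tlr1, and 0.962 RPKM, with Tlr11 at 0 counts in 3 libraries. Tlr12 had 93.2, 58.4 and 76.9 CPM in Virgin libraries, 143, 90.9 and 124 CPM in Pregnant libraries, 166, 116 and 11.1 CPM in Lactating libraries and 143, 136 and 177 CPM in Post-weaning libraries, lowest in Lactating replicate 3.

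**Figure D1:**
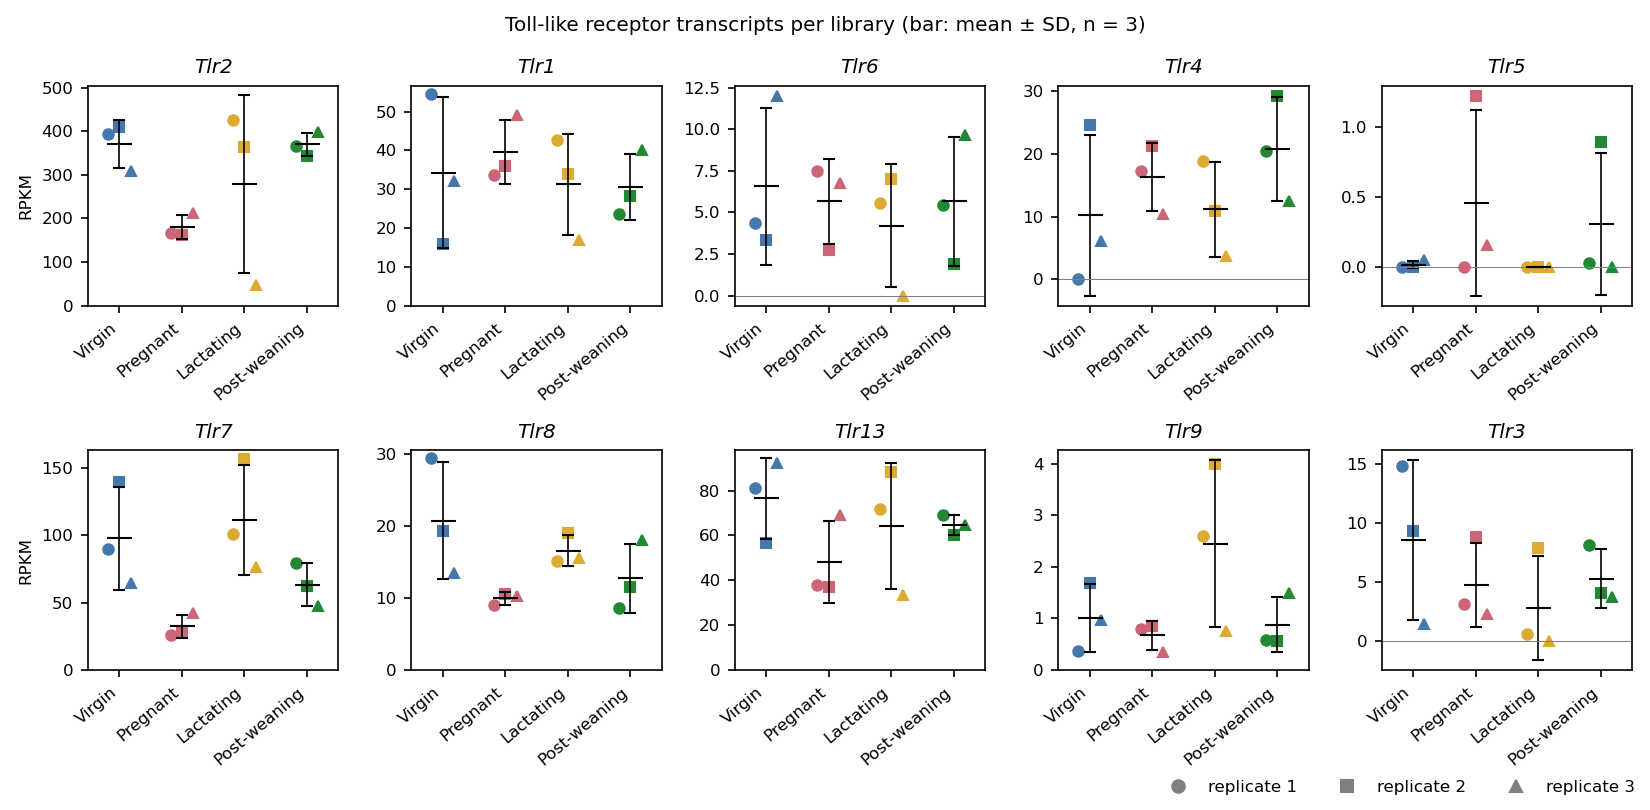
RPKM (vertical axis, a linear scale of its own for each gene) of the 10 Toll-like receptor genes in each library of the 4 stages, with cell-surface receptors in the upper row and endosomal receptors in the lower row. Symbols mark the replicate and black bars the mean and SD over 3 libraries. The Pregnant libraries of Tlr2, Tlr7 and Tlr8 lie below all Virgin libraries, and Lactating replicate 3 is low for Tlr2.

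The summed RPKM of the 10 genes was 626 ± 83.5 in the Virgin stage, 338 ± 56 in the Pregnant stage, 523 ± 285 in the Lactating stage and 574 ± 27.3 in the Post-weaning stage (SD, n = 3 each). Tlr2 made up 59.1 ± 1.13% of that sum in the Virgin stage, 53.4 ± 1.59% in the Pregnant stage, 46.4 ± 19.8% in the Lactating stage and 64.4 ± 2.1% in the Post-weaning stage. Its share was 62.2% and 52.7% in Lactating replicates 1 and 2, but 24.1% in replicate 3. The endosomal receptors together made up 32.7 ± 0.567%, 28.1 ± 2.71%, 44.3 ± 19% and 25.6 ± 2.87% at the 4 stages in the same order. Their share was 27.9% and 39.8% in Lactating replicates 1 and 2, but 65.1% in replicate 3. Tlr1 took 11.6 ± 0.524% in Pregnant libraries, against 5.53 ± 2.96% in Virgin libraries. Its own level was 39.6 ± 8.33 RPKM in Pregnant and 34.2 ± 19.5 RPKM in Virgin libraries. These shares are descriptions and were not tested.

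**Figure D2:**
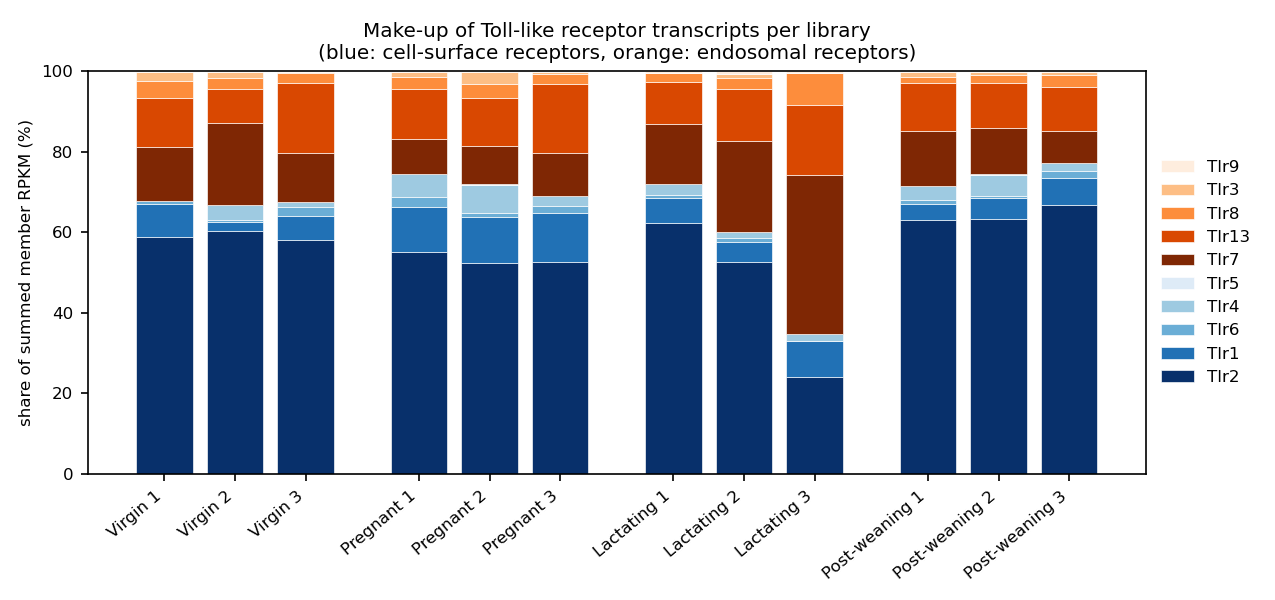
Share of the summed RPKM of the 10 genes (vertical axis, percent) that each Toll-like receptor took in each of the 12 libraries, cell-surface receptors in blue and endosomal receptors in orange. Tlr2 is the largest block in 11 libraries and takes 24.1% in Lactating replicate 3, where Tlr7 takes 39.5%.

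Among the cell-surface receptors, Tlr2 (chr3:83836272-83841824 in GRCm38.p6), which senses bacterial lipoproteins as a partner of Tlr1 or Tlr6, had 1125, 1172 and 879 CPM in Virgin libraries, 475, 463 and 605 CPM in Pregnant libraries, 1213, 1042 and 133 CPM in Lactating libraries and 1048, 983 and 1136 CPM in Post-weaning libraries. Every Pregnant library was below every Virgin and every Post-weaning library, and Lactating replicate 3 was far below the other Lactating libraries. In bulk libraries such as these, fewer cells of a type and less RNA per cell cannot be told apart. In edgeR's quasi-likelihood test over all 12 libraries Tlr2 did not pass in pregnancy against virgin (log2 fold change -1.04 ± 0.55 (SE), adjusted p = 0.509) or after weaning against pregnancy (log2 fold change 1.04 ± 0.55 (SE), adjusted p = 0.59). It did not pass in lactation against pregnancy either (log2 fold change 0.63 ± 0.55 (SE), adjusted p = 0.593). Without Lactating replicate 3, which was left out of the fit because it stood apart, Tlr2 passed in all 3 of these comparisons. The values were then -1.03 ± 0.17 (SE) with adjusted p = 0.00505 in pregnancy against virgin, 1.08 ± 0.18 with adjusted p = 0.00459 in lactation against pregnancy, and 1.05 ± 0.17 with adjusted p = 0.00692 after weaning against pregnancy. That fit called 3.26%, 5.13% and 2.29% of all genes tested in the same 3 comparisons. In the other 11 fits that each left out 1 library Tlr2 was not called in any comparison. Fitted to only the 6 libraries compared, Tlr2 was called in pregnancy against virgin (adjusted p = 0.0441) and after weaning against pregnancy (adjusted p = 0.0127), but among the fits to all 12 libraries it was called only when scaled to 12 macrophage markers (0.00146 and 0.0139), and the others gave 0.209 to 0.615 and 0.322 to 0.667.

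Tlr1, the partner of Tlr2 for triacylated lipopeptides, had 140.2, 40.6 and 82.7 CPM in Virgin libraries, 86.3, 92.3 and 126 CPM in Pregnant libraries, 109.8, 87 and 43.7 CPM in Lactating libraries and 60.4, 72.5 and 103 CPM in Post-weaning libraries, and all stages overlapped. Tlr6, the partner for diacylated lipopeptides, had 11.4, 8.72 and 31.2 CPM in Virgin libraries, 19.5, 7.11 and 17.6 CPM in Pregnant libraries, 14.6, 18.3 and 0 CPM in Lactating libraries and 14.1, 4.9 and 25.1 CPM in Post-weaning libraries. It was low in every library and at 0 counts in Lactating replicate 3, where 3 counts would be 0.263 CPM. Tlr1 and Tlr6 are near-identical over part of their length: 454 of the 3332 distinct 50-base windows of Tlr1 transcripts (13.6%) were also found in Tlr6 transcripts, so how reads there were assigned is uncertain. Tlr1 (chr5:64924680-64933600) and Tlr6 (chr5:64953092-64970942) lie 19491 bases apart. Tlr6 overlaps Fam114a1 in the annotation, and whether reads were counted by strand is not stated in the labels. Neither passed the edgeR test in any comparison.

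Tlr4 (chr4:66827551-66846581), the receptor for bacterial lipopolysaccharide, had 0, 94.5 and 23.2 CPM in Virgin libraries, 66.2, 81.9 and 40.2 CPM in Pregnant libraries, 72.4, 42 and 14 CPM in Lactating libraries and 78.9, 112 and 48.2 CPM in Post-weaning libraries. The library at 0 held no read of Tlr4 in 8704918 counts, where 3 counts would be 0.344 CPM, and the SD of the Virgin libraries, 49.3 CPM, was wider than the largest difference between the stage means. Tlr4 did not pass in pregnancy against virgin (log2 fold change 0.67 ± 1.20 (SE), adjusted p = 0.957) or in any other comparison. Tlr5 (chr1:182954752-182976044), the flagellin receptor, was at 0 counts in 7 of 12 libraries, with 0, 0 and 2 counts in Virgin libraries, 0, 34 and 12 counts in Pregnant libraries, 0 counts in every Lactating library and 1, 28 and 0 counts in Post-weaning libraries. In the libraries at 0, 3 counts would be 0.238 to 0.548 CPM. Tlr5 did not pass the filter on low counts in the fit to all 12 libraries, so 9 of the 10 genes entered its tests. It passed the filter in 10 of the 12 fits that left out a library and was called in none of them.

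Among the endosomal receptors, Tlr7 (chrX:167303380-167330574), a sensor of single-stranded RNA, was lower in every Pregnant library than in any library of the other stages. It had 335, 523 and 240.3 CPM in Virgin libraries, 96.5, 109 and 158 CPM in Pregnant libraries, 377, 585 and 286 CPM in Lactating libraries and 297, 233 and 178 CPM in Post-weaning libraries. The highest Pregnant library, at 158 CPM, was below the lowest library of any other stage, at 178 CPM. Tlr7 rose in lactation against pregnancy (log2 fold change 1.78 ± 0.36 (SE), adjusted p = 0.0168), with means of 416 ± 154 CPM in Lactating and 121 ± 32.3 CPM in Pregnant libraries (SD, n = 3 each), and it was the only one of the 9 genes called in any pairwise comparison. The call was lost in a fit to only the 6 libraries compared (adjusted p = 0.0643) and without Pregnant replicate 1 (0.0894), Pregnant replicate 2 (0.0927) or Lactating replicate 2 (0.0631), and it held in the other 9 fits that left out 1 library, with adjusted p from 0.00651 without Lactating replicate 3. Pregnancy against virgin gave a difference of similar size that missed the threshold (log2 fold change -1.59 ± 0.35 (SE), adjusted p = 0.0549), with 121 ± 32.3 CPM in Pregnant and 366 ± 144 CPM in Virgin libraries. It passed under 7 alternatives fitted to all 12 libraries, with adjusted p from 0.000296 in DESeq2 to 0.0492 without a filter on low counts, and without Lactating replicate 3 (0.019), but not in the fit to only the 6 libraries compared (0.0619), with a replicate block (0.0979) or without any of the other 11 libraries (up to 0.256). Post-weaning libraries lay above the Pregnant ones and, apart from replicate 1, below the Lactating ones, and Tlr7 did not pass after weaning against Pregnant (log2 fold change 0.96 ± 0.35 (SE), adjusted p = 0.334) or Lactating libraries (log2 fold change -0.82 ± 0.35 (SE), adjusted p = 0.3).

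Tlr8 (chrX:167241123-167264329), a close relative of Tlr7 that senses RNA in human cells, lies 39050 bases from Tlr7 on chromosome X. It had 92.8, 61.1 and 42.4 CPM in Virgin libraries, 28.2, 33.3 and 32.4 CPM in Pregnant libraries, 47.6, 60.1 and 48.9 CPM in Lactating libraries and 27, 36.5 and 56.9 CPM in Post-weaning libraries. The Pregnant libraries lay within a narrow band below all Virgin and all Lactating libraries, but overlapped the Post-weaning ones. Tlr8 did not pass in pregnancy against virgin (log2 fold change -1.06 ± 0.35 (SE), adjusted p = 0.237) or in lactation against pregnancy (log2 fold change 0.74 ± 0.35 (SE), adjusted p = 0.287).

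Tlr13 (chrX:106143275-106160493), which in mice senses bacterial ribosomal RNA, had 325, 228 and 369.9 CPM in Virgin libraries, 153, 149 and 278 CPM in Pregnant libraries, 288, 354 and 133 CPM in Lactating libraries and 278, 242 and 259.7 CPM in Post-weaning libraries. Pregnant replicates 1 and 2 were among the lowest 3 libraries of the 12, together with Lactating replicate 3, and Pregnant replicate 3 overlapped the Virgin libraries. It did not pass in pregnancy against virgin (log2 fold change -0.67 ± 0.35 (SE), adjusted p = 0.508) or in lactation against pregnancy (log2 fold change 0.42 ± 0.35 (SE), adjusted p = 0.582). Tlr9 (chr9:106222598-106226876), the sensor of unmethylated CpG DNA, had 1.26, 5.86 and 3.36 CPM in Virgin libraries, 2.78, 2.98 and 1.2 CPM in Pregnant libraries, 9.01, 13.9 and 2.63 CPM in Lactating libraries and 2.01, 1.94 and 5.19 CPM in Post-weaning libraries, from 11 to 76 counts a library, and the highest values were in Lactating replicates 1 and 2. Lactation against pregnancy gave a large but imprecise difference for Tlr9 (log2 fold change 1.87 ± 1.08 (SE), adjusted p = 0.38). Tlr3 (chr8:45395665-45411075), the sensor of double-stranded RNA, had 64.5, 40.6 and 6.29 CPM in Virgin libraries, 13.7, 38.2 and 10.1 CPM in Pregnant libraries, 2.6, 34.2 and 0 CPM in Lactating libraries and 35.4, 17.6 and 16.2 CPM in Post-weaning libraries. Its levels spread widely within each stage, it was at 0 counts in Lactating replicate 3, where 3 counts would be 0.263 CPM, and it did not pass in any comparison.

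Promoters of 3 endosomal receptors are shown as examples of windows that hold GAGGAA and lie outside the annotated span of their gene. The window of Tlr3, which lies inside its gene's span, holds no GAGGAA and is not printed. In each of the 3, GAGGAA on either strand, the core letters bound by PU.1, a factor of the macrophage lineage, is in capitals. The sequences are from RefSeq (GRCm38.p6), read 5′ to 3′ along the gene's strand, and end at the last base before the annotated start or before any base that a transcript also holds. Those of Tlr8 (chrX:167264330-167264579, minus strand), Tlr13 (chrX:106143025-106143203, plus strand) and Tlr9 (chr9:106222348-106222597, plus strand) read as follows.
Tlr8: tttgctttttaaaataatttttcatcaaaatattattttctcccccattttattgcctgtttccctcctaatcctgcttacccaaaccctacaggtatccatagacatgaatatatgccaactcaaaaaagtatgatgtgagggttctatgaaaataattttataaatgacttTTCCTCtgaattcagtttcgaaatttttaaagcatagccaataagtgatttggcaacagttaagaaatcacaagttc
Tlr13: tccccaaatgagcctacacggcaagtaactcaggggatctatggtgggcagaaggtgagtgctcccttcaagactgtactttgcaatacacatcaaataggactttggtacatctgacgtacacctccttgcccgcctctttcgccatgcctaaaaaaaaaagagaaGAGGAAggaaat
Tlr9: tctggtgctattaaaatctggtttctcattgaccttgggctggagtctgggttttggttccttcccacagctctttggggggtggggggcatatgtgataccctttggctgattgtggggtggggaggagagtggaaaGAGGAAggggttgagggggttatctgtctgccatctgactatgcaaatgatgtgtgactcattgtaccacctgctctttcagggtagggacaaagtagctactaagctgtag
Windows of 250 bases before a start were found for 8 of the 10 genes, 10 windows in all, since Tlr1 and Tlr6 each have 2. No window was found for Tlr4 or Tlr7, so their promoters were not searched. GAGGAA was found in 4 of the 10 windows, those of Tlr1, Tlr8, Tlr9 and Tlr13, and in 23.3% of 32851 windows of all genes. A loose form of the NF-kB site, GGG and CC with any 5 bases between, was found in 4 of the 10 windows, of Tlr2, Tlr3, Tlr5 and Tlr6, and in 45.8% of all windows. The repeat bound by interferon regulatory factors, GAAA and GAAA with any 2 bases between, was found in 1 window, of Tlr6, and in 2.98% of all windows. Both strands were searched, and a match is only a description of these letters.

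In pregnancy against virgin, 3 of the 9 tested genes, Tlr2, Tlr7 and Tlr8, were lower in every Pregnant library than in any Virgin library, and none was higher. Of all 12672 genes tested, 10.7% were lower without overlap in that comparison and 24.2% did not overlap in either direction. The median log2 fold change was -0.67 over the 9 genes and 0.03 over all genes. None of the 9 was called by edgeR, against 1.32% of all genes. At an unadjusted p under 0.05 there were 2 of the 9, Tlr7 and Tlr8, against 12.2% of all genes. DESeq2 and limma-voom each called 1, Tlr7, where they called 5.24% and 2.35% of all genes.

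In lactation against pregnancy, Tlr7 was called higher, 1 of the 9 genes, and none was called lower, while 3.85% of all genes were called, 2.65% higher. Tlr7 was also the only one of the 9 with an unadjusted p under 0.05, as had 18.6% of all genes. Tlr7 and Tlr8 were higher in every Lactating library than in any Pregnant one, against 9.5% of all genes, and 26.6% of all genes did not overlap in either direction. The median log2 fold change was 0.42 over the 9 genes and -0.14 over all genes. After weaning against pregnancy, Tlr2 and Tlr7 were higher without overlap, where 14.0% of all genes were, and 27.3% of all genes did not overlap in either direction. None of the 9 was called by edgeR, DESeq2 or limma-voom in that comparison, where these called 0.718%, 3.99% and 1.32% of all genes. In edgeR 1 of the 9, Tlr7, had an unadjusted p under 0.05, as had 10.2% of all genes. These comparisons share the Pregnant libraries, so the values above are not independent of each other.

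A scaling to the summed macrophage markers, in place of TMM, was run because the marker share differed between stages. With all 12 markers it moved the median of all genes by -1.35 (log2) in pregnancy against virgin and by 1.2 in lactation against pregnancy, and edgeR then called 18.4% and 21.3% of all genes. It called 4 of the 9 in each, Tlr2, Tlr7, Tlr8 and Tlr13, lower in Pregnant than in Virgin and higher in Lactating than in Pregnant libraries. Relative to the median of all genes, Tlr7 stood at -1.6 in pregnancy against virgin and 1.89 in lactation against pregnancy, and Tlr2 at -1.05 and 0.41. With the 11 markers other than Lyz2, the median moved by -0.2 and 0.12 in the same comparisons, and Tlr7 alone was called in each (adjusted p = 0.0267 and 0.0134). The scaling to all 12 markers turned the sign of Tlr1 and Tlr4 in both comparisons. It also turned that of Tlr3 and Tlr6 in lactation against pregnancy, but the median of all genes moved too. Relative to the median of all genes, Tlr1 stood at 0.22 and -0.33, and Tlr4 at 0.6 and -0.65, the signs they had with TMM.

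**Figure D3:**
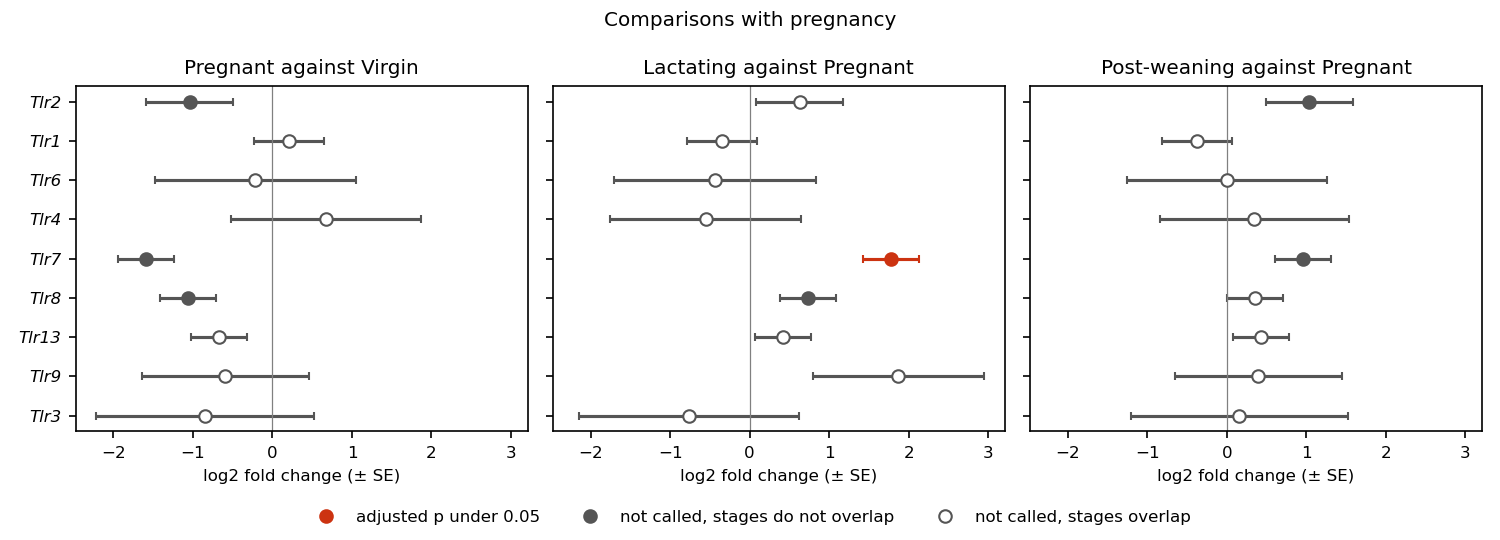
Log2 fold changes (horizontal axis, ± SE) of the 9 tested Toll-like receptor genes in the 3 comparisons that involve pregnancy, on 1 common scale. Tlr7 in lactation against pregnancy, at 1.78 ± 0.36, is the only point past the threshold, and filled grey points mark genes whose libraries did not overlap between the stages.

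No gene of the 9 was called between stages other than pregnancy. In lactation against virgin, edgeR called none of the 9, against 1.94% of all genes, none had an unadjusted p under 0.05, as had 16.8% of all genes, and no gene's libraries were apart, where 17.3% of all genes did not overlap. Tlr7 had 416 ± 154 CPM in Lactating and 366 ± 144 CPM in Virgin libraries (log2 fold change 0.18 ± 0.35 (SE), adjusted p = 0.858). After weaning against virgin, edgeR called none of the 9 and 0% of all genes, none of the 9 had an unadjusted p under 0.05, as had 6.04% of all genes, and none was apart, where 15.4% of all genes were. Tlr2 differed least there, at 1056 ± 77.1 CPM in Post-weaning and 1058 ± 157 CPM in Virgin libraries (log2 fold change -0.004 ± 0.54 (SE), adjusted p = 1). After weaning against lactation, none of the 9 was called, against 0.923% of all genes, none was apart, where 21.6% of all genes were, and Tlr7 alone had an unadjusted p under 0.05, as had 15.1% of all genes. With Pregnant and Lactating libraries set together against Virgin and Post-weaning ones, none of the 9 was called, against 1.18% of all genes, none had an unadjusted p under 0.05, as had 14.8% of all genes, and none was apart, where 1.63% of all genes were. DESeq2 and limma-voom also called none of the 9 in these 4 comparisons, where DESeq2 called 0.971 to 9.13% and limma-voom 0.0868 to 1.96% of all genes. In edgeR's test of any difference between stages none of the 9 was called, against 3.35% of all genes. Tlr7 came nearest there (adjusted p = 0.0528) and was the only one of the 9 with an unadjusted p under 0.05, as had 16.7% of all genes. DESeq2 and limma-voom each called Tlr7 alone of the 9, where they called 11.5% and 5.71% of all genes. Without Lactating replicate 3, edgeR called Tlr2 (adjusted p = 0.0064) and Tlr7 (adjusted p = 0.02) in that test, where it called 5.76% of all genes. Tlr7 was also called without Virgin replicate 3 (adjusted p = 0.0465), where 2.34% of all genes were, and neither gene in the other fits that left out 1 library.

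The partners, adaptors and downstream proteins of these receptors, together with Tlr11 and Tlr12, were taken as a list of 46 genes, of which 45 were tested. In lactation against pregnancy 7 of the 45 (15.6%) rose and none fell, where 3.85% of all genes were called. These were Cd14, Ticam1, Pik3ap1, Irf5, Irak2, Tollip and Tnfaip3, with a median log2 fold change of 0.12 over the 45 and -0.14 over all genes. By role, these were 1 of 5 co-receptors and ligand carriers, 2 of 6 adaptors, 1 of 15 kinases and ubiquitin ligases, 1 of 3 interferon regulatory factors and 2 of 9 negative regulators, with none of 5 chaperones and trafficking proteins and neither Tlr11 nor Tlr12 called. Pik3ap1, an adaptor that links the receptors to phosphoinositide signalling, had 67.1, 70.8 and 123 CPM in Virgin libraries, 40.3, 24.8 and 34.9 CPM in Pregnant libraries, 177, 223 and 164 CPM in Lactating libraries and 156, 107 and 126 CPM in Post-weaning libraries. All Pregnant libraries were below all others, and Pik3ap1 was the only one of the 45 called in 3 pairwise comparisons. It rose in lactation against pregnancy (log2 fold change 2.50 ± 0.30 (SE), adjusted p = 0.000991) and after weaning against pregnancy (log2 fold change 1.96 ± 0.30 (SE), adjusted p = 0.0165), and fell in pregnancy against virgin (log2 fold change -1.39 ± 0.29 (SE), adjusted p = 0.0465). The call in pregnancy against virgin was kept in 1 of the 12 fits that left out a library, that without Lactating replicate 3, and was lost with a replicate block and in the fit to only the 6 libraries compared. The call after weaning against pregnancy was lost without Pregnant replicate 2 or 3 or any 1 of the Post-weaning libraries.

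Ticam1, which encodes the adaptor TRIF used by TLR3 and TLR4, had 32.4, 33.3 and 56.4 CPM in Virgin libraries, 19.5, 4.7 and 12.1 CPM in Pregnant libraries, 61.3, 123 and 88.8 CPM in Lactating libraries and 39.5, 40.3 and 40.1 CPM in Post-weaning libraries, and rose in lactation against pregnancy (log2 fold change 2.91 ± 0.49 (SE), adjusted p = 0.00696). Irf5, a transcription factor activated downstream of MyD88, had 188, 267 and 227 CPM in Virgin libraries, 169.6, 168 and 145 CPM in Pregnant libraries, 329.7, 337 and 449.6 CPM in Lactating libraries and 253, 299 and 309 CPM in Post-weaning libraries, and rose in the same comparison (log2 fold change 1.21 ± 0.20 (SE), adjusted p = 0.0061). Both, like Pik3ap1, were higher in every Lactating library than in any Pregnant or Virgin library, and all 3 kept this call in each of the 12 fits that left out a library. In the fit to only the 6 libraries compared, Pik3ap1 was the only one of the 45 called. Irak2 lost its call without Pregnant replicate 2 or 3, Tollip without any of the Pregnant libraries, Lactating replicate 1 or 2 or Post-weaning replicate 2 or 3, and Tnfaip3 without any library other than Pregnant replicate 3 and Lactating replicate 3.

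Cd14, which hands lipopolysaccharide to TLR4 and also serves TLR2, had 4056, 4567 and 4269 CPM in Virgin libraries, 2249, 1426 and 2397 CPM in Pregnant libraries, 14274, 13045 and 3002 CPM in Lactating libraries and 5748, 4834 and 5298 CPM in Post-weaning libraries. It rose in lactation against pregnancy (log2 fold change 2.32 ± 0.46 (SE), adjusted p = 0.0162), and the call was lost without any 1 of the Pregnant libraries or Lactating replicate 2. Lactating replicate 3 was again the lowest of its stage but stayed above all Pregnant libraries. In lactation against virgin, after weaning against lactation and any difference between stages, edgeR called Cd14 in 1 of the 12 fits that left out a library. The smallest adjusted p in these fits was 0.00152, 0.00738 and 0.000116 in that order. Ly96, which encodes MD-2, the TLR4 subunit that binds the lipid, had 174, 113 and 97.7 CPM in Virgin libraries, 82.1, 108 and 56.2 CPM in Pregnant libraries, 94.4, 117 and 7.37 CPM in Lactating libraries and 97, 77.2 and 73.2 CPM in Post-weaning libraries, with Lactating replicate 3 far below the rest, and did not pass in lactation against pregnancy (log2 fold change -0.17 ± 0.67 (SE), adjusted p = 0.939).

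Unc93b1, which escorts the nucleic acid receptors to endosomes, had 561, 677 and 759.5 CPM in Virgin libraries, 538, 503 and 370.3 CPM in Pregnant libraries, 765, 809.5 and 451 CPM in Lactating libraries and 711, 761 and 847 CPM in Post-weaning libraries. Its Pregnant libraries were below all Virgin libraries, and it did not pass in pregnancy against virgin (log2 fold change -0.50 ± 0.24 (SE), adjusted p = 0.457) or in lactation against pregnancy (log2 fold change 0.52 ± 0.24 (SE), adjusted p = 0.279). Myd88, the shared adaptor, had 112, 122 and 177 CPM in Virgin libraries, 86.4, 77.2 and 68.2 CPM in Pregnant libraries, 109.8, 123 and 114 CPM in Lactating libraries and 123, 148 and 127 CPM in Post-weaning libraries. Its Pregnant libraries were below all libraries of the other stages, and it did not pass in pregnancy against virgin (log2 fold change -0.83 ± 0.22 (SE), adjusted p = 0.113) or in lactation against pregnancy (log2 fold change 0.58 ± 0.22 (SE), adjusted p = 0.175).

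**Figure D4:**
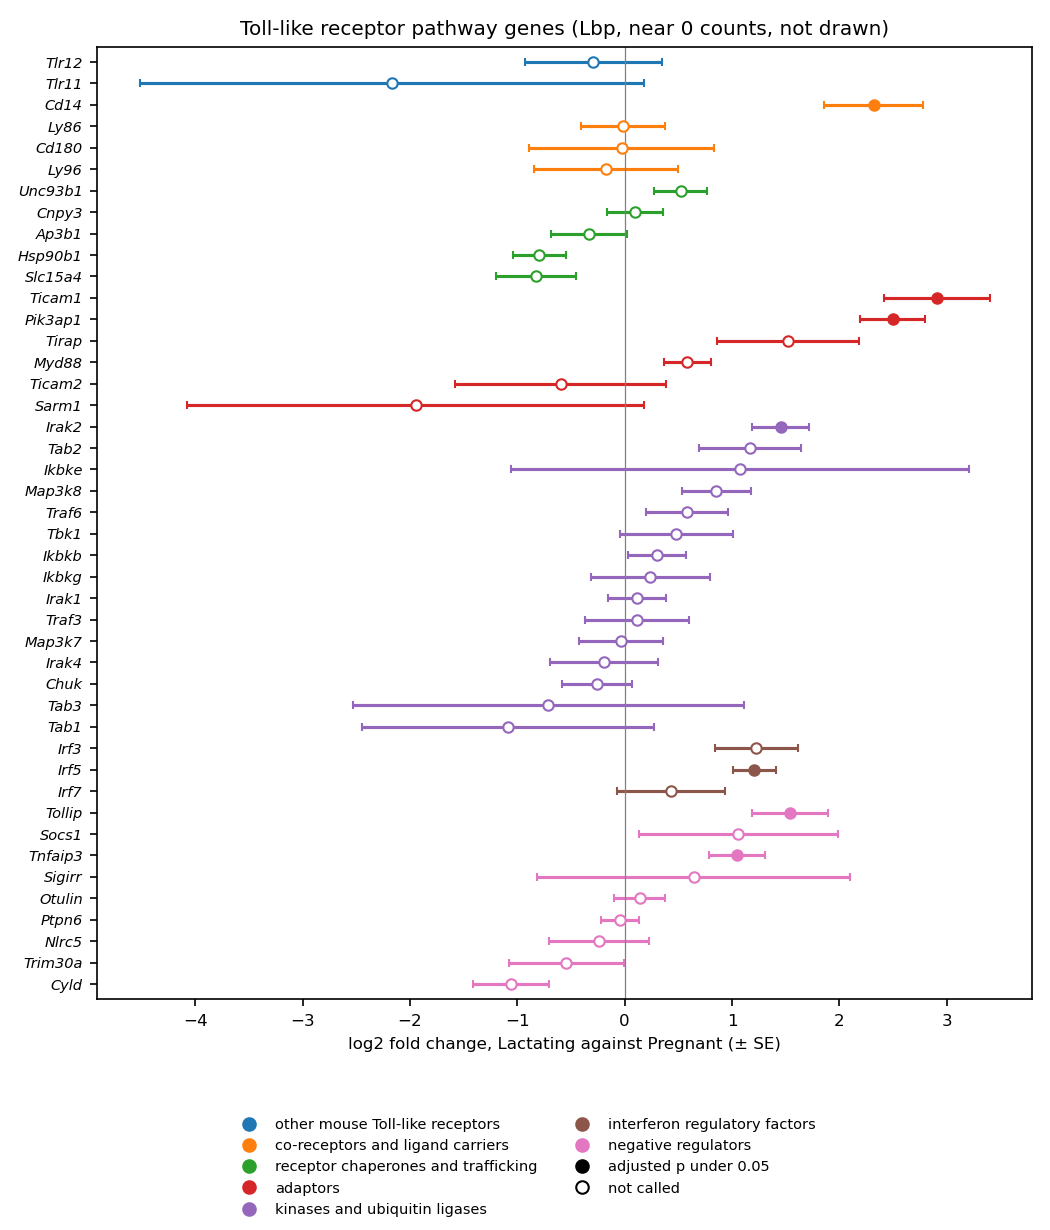
Log2 fold changes in lactation against pregnancy (horizontal axis, ± SE) of 44 genes of the Toll-like receptor pathway, grouped and coloured by role. Filled points mark the 7 genes past the threshold, all of which were higher in Lactating libraries. Lbp was tested but is not drawn, since it had 0 counts in 8 of 12 libraries.

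In the other comparisons of the 45 genes, pregnancy against virgin and after weaning against pregnancy each called Pik3ap1 alone, 2.22% of the 45 where 1.32% and 0.718% of all genes were called. In lactation against virgin edgeR called none of the 45, where it called 1.94% of all genes, while 9 (20.0%) had an unadjusted p under 0.05, as had 16.8% of all genes. DESeq2 called 5 of the 45 there, where it called 9.13% of all genes, and limma-voom called none, where it called 1.96% of all genes. After weaning against virgin none of the 45 was called by edgeR, DESeq2 or limma-voom, which called 0%, 0.971% and 0.0868% of all genes. After weaning against lactation they again called none, where they called 0.923%, 7.25% and 1.59% of all genes. In these 2 comparisons 6 (13.3%) and 8 (17.8%) had an unadjusted p under 0.05 in edgeR, against 6.04% and 15.1% of all genes. With Pregnant and Lactating set against Virgin and Post-weaning, edgeR called none, where it called 1.18% of all genes, and 5 (11.1%) had an unadjusted p under 0.05, against 14.8% of all genes. DESeq2 called 3 of the 45 there, where it called 6.57% of all genes, and limma-voom none, where it called 1.77%. The test of any difference between stages called 4 of the 45 (8.89%), Irak2, Irf5, Pik3ap1 and Ticam1, against 3.35% of all genes. Without Lactating replicate 3, 4 of the 45 fell in pregnancy against virgin, Cd14, Map3k8, Pik3ap1 and Tnfaip3, and 5 rose after weaning against pregnancy, Cd14, Irf5, Pik3ap1, Tnfaip3 and Unc93b1, where that fit called 3.26% and 2.29% of all genes.

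Markers of some other cell types were set beside the results. Plasmacytoid dendritic cells are known for Tlr7 and Tlr9. The plasmacytoid list (5 of 6 genes detected, Klk1 at 0) took 0.0194 to 0.0317% of counts in Virgin libraries, 0.0308 to 0.0323% in Pregnant libraries, where Tlr7 was lowest, 0.0155 to 0.0233% in Lactating and 0.0144 to 0.0235% in Post-weaning libraries. Of 7 neutrophil markers, from cells that carry Tlr2, S100a9, Retnlg, Cxcr2 and Ly6g were at 0 in all libraries, and the list took 0.00641 to 0.0134% of counts in Virgin, 0.0067 to 0.00947% in Pregnant, 0.00437 to 0.0137% in Lactating and 0.0057 to 0.00846% in Post-weaning libraries. The monocyte list (5 of 6 detected, Chil3 at 0) took 0.0171 to 0.0233% of counts in Virgin, 0.00793 to 0.0125% in Pregnant, 0.000785 to 0.00882% in Lactating and 0.00828 to 0.0164% in Post-weaning libraries. The conventional dendritic cell list (9 of 9 detected) took 0.0793 to 0.0971% in Virgin, 0.0794 to 0.105% in Pregnant, 0.0288 to 0.0755% in Lactating and 0.069 to 0.0847% in Post-weaning libraries. The monocyte share was lower in every library of the other stages than in any Virgin library, and the fibroblast and endothelial shares were lower in every Pregnant library than in any Virgin library. The fibroblast list (7 of 7 detected) took 0.00311 to 0.0389% in Virgin, 0.000247 to 0.00075% in Pregnant, 0 to 0.000967% in Lactating and 0.00398 to 0.016% in Post-weaning libraries. The endothelial list (6 of 6 detected) took 0.000615 to 0.00355% in Virgin, 6.13e-05 to 0.000202% in Pregnant, 0.000164 to 0.0233% in Lactating and 0.000961 to 0.00473% in Post-weaning libraries. The luminal and basal epithelial list (8 of 8 detected) took at most 0.0854% of counts in any library, the T and NK cell list (8 of 8 detected) at most 0.00279%, and the mast cell list, with Cpa3, Fcer1a and Ms4a2 at 0 in all libraries, at most 0.00377%. The part of these cells, and of the milk transcripts in Lactating replicate 3, in the levels above was not tested.

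The genes most like a member in pattern were looked up for Tlr4 and Tlr3, whose stage means in log2 CPM had the widest ranges, 3.35 and 3.31, each of which rests on a library at 0 counts. Likeness was the root mean square difference of log2 CPM, each gene centred on its own mean, over 12 libraries and 12389 genes. Nearest to Tlr4 were Serpinb9 (0.929), Chpf (1.09) and Rhbdf1 (1.11), where the median gene stood at 2.6 and a gene without variation would stand at 2.41. Likeness over libraries need not be likeness of stage means. In Virgin, Pregnant, Lactating and Post-weaning order, mean CPM was 39.3, 62.7, 42.8 and 79.8 for Tlr4. It was 18.8, 57, 25.5 and 32.3 for Serpinb9, 8.04, 17.2, 16.4 and 14.6 for Chpf, and 18.3, 9.16, 18.1 and 14.9 for Rhbdf1. Nearest to Tlr3 were Zfyve16 (0.758), Fmr1 (0.841) and Ikzf5 (0.842), where the median gene stood at 2.36 and a gene without variation would stand at 2.22. In the same stage order, mean CPM was 37.1, 20.7, 12.3 and 23.1 for Tlr3 and 22.6, 11.6, 5.41 and 12.2 for Zfyve16. It was 67.5, 47.9, 18.8 and 48.7 for Fmr1 and 11.3, 12.3, 7.52 and 16.6 for Ikzf5.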

How the data were processed

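Per the labels' protocols, RNA came from freshly sorted cells and cDNA was made from 2000 cells per library with a SMART-Seq kit, without molecular identifiers. Per the submitters' processing notes, featureCounts and mm10 were used, and the deposited counts are whole, unnormalized reads per Entrez gene. The aligner, the versions and whether reads were counted by strand are not stated there. Of 27179 genes, 25275 (93.0%) matched a symbol. The members, lists and tests were chosen with earlier results of these data known.

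All 12 libraries were fitted together in edgeR 4.0.16 (R 4.3.3) with TMM scaling, filterByExpr, a mean per stage and the robust quasi-likelihood test, with Benjamini-Hochberg adjustment over 12672 genes. A gene was called at an adjusted p under 0.05. Alternatives used DESeq2 1.42.0, limma-voom (limma 3.58.1), other scalings and filters, a replicate block, only the libraries compared and leaving out each library, and 2 scalings to macrophage markers were chosen after seeing the data. Library totals ran from 6926273 to 21204704 counts, and limits from 3 counts cover counting error only. No 2 libraries held identical values. Libraries with the same replicate number did not deviate together over all tested genes (correlations of -0.068 to 0.073). With a wide spread between libraries this cannot exclude a pairing. All 10 genes, Tlr11 and Tlr12 were named by symbol, with called pathway genes and Cd14, Ly96, Unc93b1, Myd88 and Ticam1, and values were given for at most 3 called pathway genes per comparison. The genes most alike were sought for members called in the test of any difference, and, as there were none, for the 2 with the widest range of stage means. One marker list of another cell type is not reported here.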

Additional observations from a re-analysis of the deposited data

How the results depend on the processing

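Single-gene results of the 9 tested receptor genes were recomputed under 9 alternatives and without each library. Outside the leave-one-out fits, 568 kept direction and side, 29 gained a call, 1 lost it and 32 turned, all uncalled. In the leave-one-out fits 800 kept both, 7 gained a call, 3 lost it and 54 turned. The cause was not tested.

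Percentages in brackets are the share of all genes called under the same setting. In pregnancy against virgin, Tlr7 alone of the 9 was called with RLE scaling (1.48%), DESeq2 (5.24%), limma-voom (2.35%) and all genes kept (0.89%). The same held with a minimum of 5 CPM (1.83%) and with 11 macrophage markers (1.41%). Tlr2 alone was called with only the libraries compared (2.0%), and 4 of the 9 were called with 12 markers (18.4%). In lactation against pregnancy there were 0 with only the libraries compared (1.35%) and 4 with 12 markers (21.3%). After weaning against pregnancy there were 1 (5.02%) and 2 (4.18%) under the same settings. For Pregnant and Lactating against Virgin and Post-weaning there were 2 with 12 markers (5.58%). In the test of any difference there was 1 with RLE (3.46%), DESeq2 (11.5%), limma-voom (5.71%), all genes kept (2.35%), 5 CPM (4.4%) or 11 markers (2.78%). There were 4 with 12 markers (15.0%). Leaving out 1 library gave 0 to 2 in pregnancy against virgin (0.297 to 3.26% of all genes), lactation against pregnancy (1.44 to 5.13%) and any difference (1.27 to 5.76%). It gave 0 to 1 after weaning against pregnancy (0.00744 to 2.29%).

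For the pathway, pregnancy against virgin gave 5 of 45 with DESeq2 (5.24% of all genes), 2 with limma-voom (2.35%), 21 with 12 markers (18.4%) and 2 with 11 (1.41%). It gave 0 with the replicate block (0.789%) and 0 with only the libraries compared (2.0%). Lactation against pregnancy gave 1 with only the libraries compared (1.35%) and 21 with 12 markers (21.3%). After weaning against pregnancy gave 8 with DESeq2 (3.99%), 5 with only the libraries compared (5.02%), 8 with 12 markers (4.18%) and 2 with 11 (0.836%). Lactation against virgin gave 5 with DESeq2 (9.13%). Pregnant and Lactating against Virgin and Post-weaning gave 3 with DESeq2 (6.57%) and 6 with 12 markers (5.58%). Any difference gave 11 with DESeq2 (11.5%), 1 with the replicate block (1.76%) and 15 with 12 markers (15.0%). Leaving out 1 library gave 0 to 4 (pregnancy against virgin), 3 to 7 (lactation against pregnancy), 0 to 5 (after weaning against pregnancy), 0 to 2 (lactation against virgin), 0 to 1 (after weaning against lactation) and 1 to 6 (any difference). These fits called, in the same order, 0.297 to 3.26%, 1.44 to 5.13%, 0.00744 to 2.29%, 0.826 to 3.1%, 0.194 to 1.8% and 1.27 to 5.76% of all genes.

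Replicate numbers were shared between stages, but over 18 same-numbered pairs the correlation of deviations was -0.068 to 0.073, and 5 of 12 libraries correlated best with their own number. With the replicate block, Tlr7 in lactation against pregnancy stayed called (1.69, adjusted p = 0.0336), and 4 results turned.

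The scaling to 12 markers moved the median of all genes by -1.35 in pregnancy against virgin and by 1.2 in lactation against pregnancy. That to 11 moved it by -0.2 and 0.12, so a turn under either need not be a change relative to other genes. The shift was not the same for every gene. With 12 markers in place of TMM, Tlr6 in lactation against pregnancy went from -0.435 to 0.31 and Tlr8 from 0.737 to 2.03. Uncalled log2 fold changes that turned with 12 markers were those of Tlr1 in pregnancy against virgin (-1.10), lactation against pregnancy (0.72), after weaning against pregnancy (0.45) and Pregnant and Lactating against Virgin and Post-weaning (-0.41); Tlr3 in lactation against pregnancy (0.093); Tlr4 in pregnancy against virgin (-0.72), lactation against virgin (-0.33) and lactation against pregnancy (0.40); Tlr6 in lactation against pregnancy (0.31) and after weaning against pregnancy (0.83); Tlr9 for Pregnant and Lactating (-0.18); and Tlr13 after weaning against lactation (-0.20, and -0.011 with the block). With 11 markers they were Tlr1 after weaning against lactation (0.051) and for Pregnant and Lactating (-0.023), Tlr4 in lactation against virgin (-0.14) and Tlr6 after weaning against pregnancy (0.064). Tlr1 turned after weaning against virgin with limma-voom (0.035), and after weaning against lactation with RLE or DESeq2 (0.011), limma-voom (0.16) or all genes kept (0.008). Tlr2 after weaning against virgin turned with limma-voom (0.009), all genes kept (0.008), 5 CPM (0.002) and the block (0.036). Tlr4 for Pregnant and Lactating turned with limma-voom (0.71) and the block (0.029), Tlr6 after weaning against pregnancy with RLE (0.049), DESeq2 (0.05) and 5 CPM (0.007), and Tlr9 after weaning against virgin with the block (0.012).

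Leave-one-out log2 fold changes that turned ranged for Tlr1 from -0.13 to 0.75 in pregnancy against virgin, -0.48 to 0.36 in lactation against virgin, -0.50 to 0.37 after weaning against virgin, -0.27 to 0.31 after weaning against lactation and -0.053 to 0.37 for Pregnant and Lactating. For Tlr2 they were -0.89 to 0.045 in lactation against virgin, -0.12 to 0.076 after weaning against virgin and -0.033 to 0.89 after weaning against lactation. For Tlr3 they were -4.11 to 0.031 in lactation against pregnancy and -0.29 to 0.95 after weaning against pregnancy, and for Tlr4 -0.53 to 1.86 in lactation against virgin and -0.43 to 0.76 for Pregnant and Lactating. For Tlr6 they were -0.53 to 0.55, -1.25 to 0.12 and -0.85 to 0.55 for pregnancy, lactation and after weaning against virgin, -1.06 to 0.097 and -0.63 to 0.41 for lactation and after weaning against pregnancy, -0.20 to 1.05 after weaning against lactation and -0.62 to 0.059 for Pregnant and Lactating. For Tlr7 in lactation against virgin they were -0.16 to 0.53, for Tlr9 -0.82 to 0.39 after weaning against virgin and -0.23 to 0.64 after weaning against pregnancy, and for Tlr13 -0.56 to 0.011 in lactation against virgin and -0.24 to 0.33 after weaning against lactation.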
